A study of Mus musculus with 2 samples.

Results

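Kupffer-like macrophages were the subject of this account of the MASH liver. They were nuclei with at least 300 detected genes and at most 6000 unique molecular identifiers (UMIs, counted RNA molecules) that were chosen by their own UMIs of 12 genes. *Clec4f*, *Vsig4* and *Timd4* together had to reach 2 UMIs and exceed *Gpnmb*, *Trem2* and *Mmp12* together, while *Reln*, *Dcn*, *Ptprb*, *Clec4g*, *Pkhd1* and *Bcl11b*, genes of stellate cells, endothelial cells, cholangiocytes and T cells, could add up to no more than 1 UMI. The rule found 352 nuclei in the library labelled Flox and 474 in the library labelled HKO, 826 of the 20081 nuclei with at least 300 genes.

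The study asked how loss of *Themis* from hepatocytes alters the fatty, inflamed liver of diet-induced MASH (metabolic dysfunction–associated steatohepatitis). Frozen liver tissue of male C57BL6/J mice was pooled from several animals per genotype. Nuclei were isolated from the pooled tissue, sorted by flow cytometry and sequenced by 10x 3′ single-nucleus RNA-seq. Both groups ate the same diet, made of 2% cholesterol, 20 kcal% fructose and 40 kcal% fat, for 5 months from 10 to 12 weeks of age. Flox mice carried Themis flox/flox alleles without Cre, although the title of that library reads WT, and HKO mice (genotype label Themis Alb-Cre) carried Cre driven by the albumin promoter, which acts in hepatocytes and not in macrophages.

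Each genotype was 1 library, so genotype cannot be told apart from any other difference between the libraries, and no p-value or standard error is given. All intervals are exact 95% intervals that cover counting error only. *Themis* was not lower in the library labelled HKO, with 202 UMIs per 1000000 UMIs (CPM) over all its nuclei against 143.5 CPM in the library labelled Flox, and therefore the libraries are called by their labels throughout. Whether the labels were exchanged, or whether the 3′ reads lie outside the deleted part of the gene, was not tested, so the direction of every ratio rests on the labels. Kupffer-like nuclei held 6 and 12 *Themis* UMIs, 7.05 CPM (2.59–15.3) in Flox and 15.7 CPM (8.13–27.5) in HKO, beside 12.7 and 36.7 CPM in endothelial nuclei.

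Kupffer cells are the resident macrophages of the liver. They sit inside the sinusoids, where they clear bacteria, aged red cells and modified lipoproteins from portal blood through scavenger receptors, recycle iron from heme and release complement proteins. Their identity depends on signals from sinusoidal endothelial and stellate cells and on transcription factors such as LXRα (*Nr1h3*), ID3 and SPIC. In steatohepatitis, part of the embryonic population is known to be lost and replaced by macrophages that derive from monocytes, which acquire *Clec4f* early and *Timd4* late.

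The promoters of 4 genes are shown because the comparison of the libraries turned on them. *Cd5l*, which encodes a secreted apoptosis inhibitor of macrophages, was at the same level in both libraries, and *Marco*, *Cd163* and *Cxcl13* were low in HKO. Each sequence is the 250 bases before the RefSeq start of the gene (build GRCm38.p6), written 5′ to 3′ on the strand of the gene, and capitals mark a motif searched on both strands. The windows are chr3:87357631-87357880 (plus strand), chr1:120505025-120505274 (minus strand), chr6:124304401-124304650 (plus strand) and chr5:95956689-95956938 (plus strand).
Cd5l: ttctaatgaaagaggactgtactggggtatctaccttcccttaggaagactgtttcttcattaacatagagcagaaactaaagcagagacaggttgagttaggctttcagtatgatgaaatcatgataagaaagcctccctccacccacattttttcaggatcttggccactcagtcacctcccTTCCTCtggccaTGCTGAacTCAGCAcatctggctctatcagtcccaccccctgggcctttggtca
Marco: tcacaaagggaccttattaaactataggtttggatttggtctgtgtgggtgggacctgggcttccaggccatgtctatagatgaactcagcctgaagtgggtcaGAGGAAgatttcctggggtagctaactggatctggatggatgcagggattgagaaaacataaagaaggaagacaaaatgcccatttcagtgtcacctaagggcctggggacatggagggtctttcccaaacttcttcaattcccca
Cd163: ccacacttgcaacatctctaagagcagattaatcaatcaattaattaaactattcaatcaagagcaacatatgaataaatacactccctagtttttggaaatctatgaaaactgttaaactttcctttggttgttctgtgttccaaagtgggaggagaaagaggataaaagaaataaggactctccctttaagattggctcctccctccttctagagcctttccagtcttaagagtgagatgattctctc
Cxcl13: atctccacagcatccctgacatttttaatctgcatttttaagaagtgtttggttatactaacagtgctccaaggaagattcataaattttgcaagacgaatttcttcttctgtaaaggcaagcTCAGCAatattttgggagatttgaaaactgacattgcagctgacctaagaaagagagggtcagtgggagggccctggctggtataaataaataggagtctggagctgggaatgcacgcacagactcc

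The *Cd5l* window held the PU.1 motif (GAGGAA) and, on both strands, the MAF motif (TGCTGA). *Marco* held the PU.1 motif 141 to 146 bases before its start, *Cxcl13* held the MAF motif on the opposite strand at 122 to 127 bases, and *Cd163* held none. No window held the AP-1 motif (TGANTCA). Of 27025 RefSeq promoters of the same length, 23.1% held the PU.1 motif, 15.8% the MAF motif and 6.87% the AP-1 motif. The matches are descriptions of these letters and not of binding.

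Kupffer-like nuclei made up 3.76% (3.38–4.17) of all Flox nuclei and 4.42% (4.04–4.83) of all HKO nuclei, a ratio of 1.18 (1.02–1.35). The order turned with the denominator. Among nuclei with at most 6000 UMIs, they were 7.81% in Flox and 5.79% in HKO, a ratio of 0.741 (0.644–0.853). This limit kept 4506 of 9360 Flox nuclei and 8186 of 10721 HKO nuclei. Endothelial nuclei turned in the same way, with a ratio of 1.25 (1.14–1.37) of all nuclei and 0.785 (0.717–0.861) under the limit. Among macrophage nuclei, Kupffer-like nuclei were 352 of 704 in Flox (interval 46.2% to 53.8%) and 474 of 1650, or 28.7% (26.6–31.0), in HKO, a ratio of 0.575 (0.499–0.661). Nuclei in which *Trem2*, *Gpnmb* and *Mmp12* led, the genes of lipid-associated macrophages, were 62 in Flox and 449 in HKO, and other macrophage nuclei were 290 and 727. Thus by this rule and at these depths, Kupffer-like nuclei held a smaller part of the macrophage nuclei in HKO. Other macrophage nuclei had a median of 1796 UMIs in Flox and 1213 in HKO, and *Cd5l* at 568 and 835 CPM. A nucleus with fewer UMIs reaches 2 UMIs of the rule genes less easily. The share of macrophage nuclei was not computed at equal depth, and the part of depth in it was not tested.

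**Figure D1:**
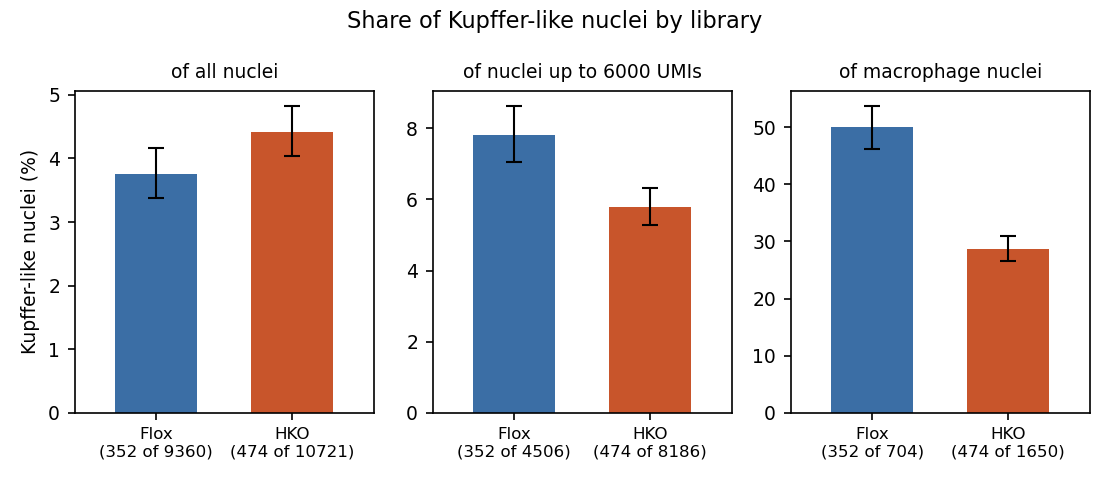
Share of Kupffer-like nuclei (bars, percent) in the library labelled Flox and the library labelled HKO, of all nuclei, of nuclei up to 6000 UMIs and of macrophage nuclei, with exact 95% intervals for counting error. The HKO bar is the higher of the pair over all nuclei (4.42% against 3.76%) and the lower over macrophage nuclei (28.7%, or 474 of 1650, against 352 of 704).

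The libraries differed in depth. A Kupffer-like nucleus had a median of 2255 UMIs and 1369.5 genes in Flox and 1477.5 UMIs and 937 genes in HKO, and the summed UMIs were 850819 and 762574. *Malat1* took 9.88% and 13.2% of UMIs, and mitochondrial genes 0.642% and 0.633%. Hepatocyte markers summed to 2782 CPM in Flox Kupffer-like nuclei and 1658 CPM in HKO ones, against 4316 and 3564 CPM in endothelial nuclei. The rule itself limited endothelial, stellate, T cell and cholangiocyte genes. Outside the rule genes, endothelial markers were at 336 and 291 CPM, beside 310 and 444 CPM in all other nuclei. Stellate cell markers were at 170 and 228 CPM and T cell markers at 23.5 and 28.8 CPM. Cholangiocyte markers were at 7.05 and 6.56 CPM, of which *Krt7* and *Krt19* had 0 UMIs in both libraries. Among markers that the rule did not limit, those of B cells were at 443 and 383 CPM, mostly *Bank1* (421 and 375 CPM). Plasma cell markers were at 871 and 184 CPM and dendritic cell markers at 264 and 333 CPM. The part of other cell types in these results was not tested. Of 27 barcodes found in both libraries, 2 were Kupffer-like, both in HKO.

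The rule genes describe who was admitted and are no finding. *Clec4f*, the C-type lectin that marks mouse Kupffer cells, had UMIs in 88.4% (84.5–91.5) of Flox members and 94.5% (92.1–96.4) of HKO members. *Vsig4*, a complement receptor, had them in 65.3% (60.1–70.3) and 44.3% (39.8–48.9), and *Timd4*, the phosphatidylserine receptor of long-lived resident cells, in 42.0% (36.8–47.4) and 13.3% (10.4–16.7). All 3 genes were seen in 22.7% of Flox and 4.43% of HKO members, and *Clec4f* alone in 18.75% and 47.9%. The HKO members therefore entered mostly on *Clec4f*, at 1995 CPM against 1430 CPM in Flox, with *Timd4* at 119 CPM against 393 CPM.

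At the threshold, 53 Flox and 119 HKO members had exactly 2 UMIs of these 3 genes, and 67 and 165 nuclei with 1 UMI fell just outside. Just inside, *Cd5l* was at 1601 and 1784 CPM and hepatocyte markers summed to 4230 and 1989 CPM. Just outside, *Cd5l* was at 796.5 and 699 CPM and hepatocyte markers at 9964 and 6199 CPM. A further 16 and 63 nuclei stayed out because lipid-associated genes were as high, 25 and 17 because they had over 6000 UMIs, and 4 and 13 had exactly 2 UMIs of other lineages.

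The label was checked against *Marco* and *Cd163*, 2 markers that the rule did not use. In Flox, all 5 markers were among the 10 genes with the highest ratio of Kupffer-like over other nuclei, headed by *Clec4f* at 99.7-fold, and *Cd163* and *Marco* were at 59.9-fold and 56.3-fold. In HKO, only the 3 rule genes were among that 10, and *Cd163* and *Marco* were at 14.0-fold and 9.12-fold. The ranks of *Clec4f*, *Vsig4* and *Timd4* follow from the rule, and the 2 other markers led the Flox nuclei but not the HKO nuclei.

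Genes outside the rule that led the Kupffer-like nuclei in both libraries were ranked by the lower of the 2 ratios over other nuclei, which describes the class and tests nothing. *Kcna2*, a voltage-gated potassium channel, headed them at 59.0-fold in Flox and 27.4-fold in HKO. *Trpm2*, a calcium channel gated by oxidative stress, followed at 62.4-fold and 26.9-fold, and *Cd5l* at 68.6-fold and 24.8-fold. Others were *Spic*, a transcription factor of iron-recycling macrophages (55.4-fold and 22.5-fold), *Ptgs1*, a cyclooxygenase (34.0-fold and 21.1-fold), complement *C1qc* (56.1-fold and 18.2-fold) and *Adgre1*, which encodes F4/80 (42.5-fold and 17.3-fold). The 20 leading genes also held *Tmc3*, *Bank1*, *Adgb*, *Gbp2b*, *Myo9a*, *Pou2f2*, *Hdac9*, *Fyb*, *Adgre4*, *Ctla2b*, *Ctsc* and *Epb41l3*. *Bank1* is known from B cells, and the B cell genes *Pax5* and *Ms4a1* had 0 UMIs in members of both libraries.

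Most identity genes stood above the other nuclei, of which hepatocytes are a large part. Of 18 Kupffer identity genes outside the rule with at least 50 UMIs over both libraries, 16 were at least 2-fold over other nuclei in both, as were all 18 measured pan-macrophage genes and 10 of 17 transcription factors, beside 28.1% of all 5531 genes tested (35.9% in Flox and 29.7% in HKO). Other macrophages shared much of this. Pan-macrophage genes summed to 11953 CPM in Flox and 9077 CPM in HKO members, against 11786 and 9621 CPM in other macrophage nuclei, and *Kcna2* was only 2.26-fold and 2.68-fold over *Trem2*, *Gpnmb* and *Mmp12* nuclei. *Slc40a1*, the iron exporter ferroportin, was the most abundant identity gene, at 5347 CPM (5192–5504) in Flox and 3930 CPM (3791–4073) in HKO.

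Compared with *Trem2*, *Gpnmb* and *Mmp12* nuclei, Kupffer-like nuclei had more complement *C6* (903 against 178 CPM in Flox and 564 against 90.8 CPM in HKO) and more *Gbp2b*, an interferon-inducible GTPase (133 against 16.2 CPM and 157 against 17.9 CPM). They had less *Itgax*, which encodes CD11c (3.53 against 170 CPM and 14.4 against 148 CPM), and less *Adam8* (4.70 against 138 CPM and 10.5 against 144.5 CPM). Compared with other macrophage nuclei, they had far less *Ccr2*, the receptor by which monocytes leave the marrow. *Ccr2* was at 23.5 CPM in Flox and 35.4 CPM in HKO members, 965 and 642 CPM in other macrophage nuclei and 15.1 and 17.3 CPM in endothelial nuclei. *Fn1* followed the same order, at 56.4 and 60.3 CPM against 472 and 345 CPM.

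**Figure D2:**
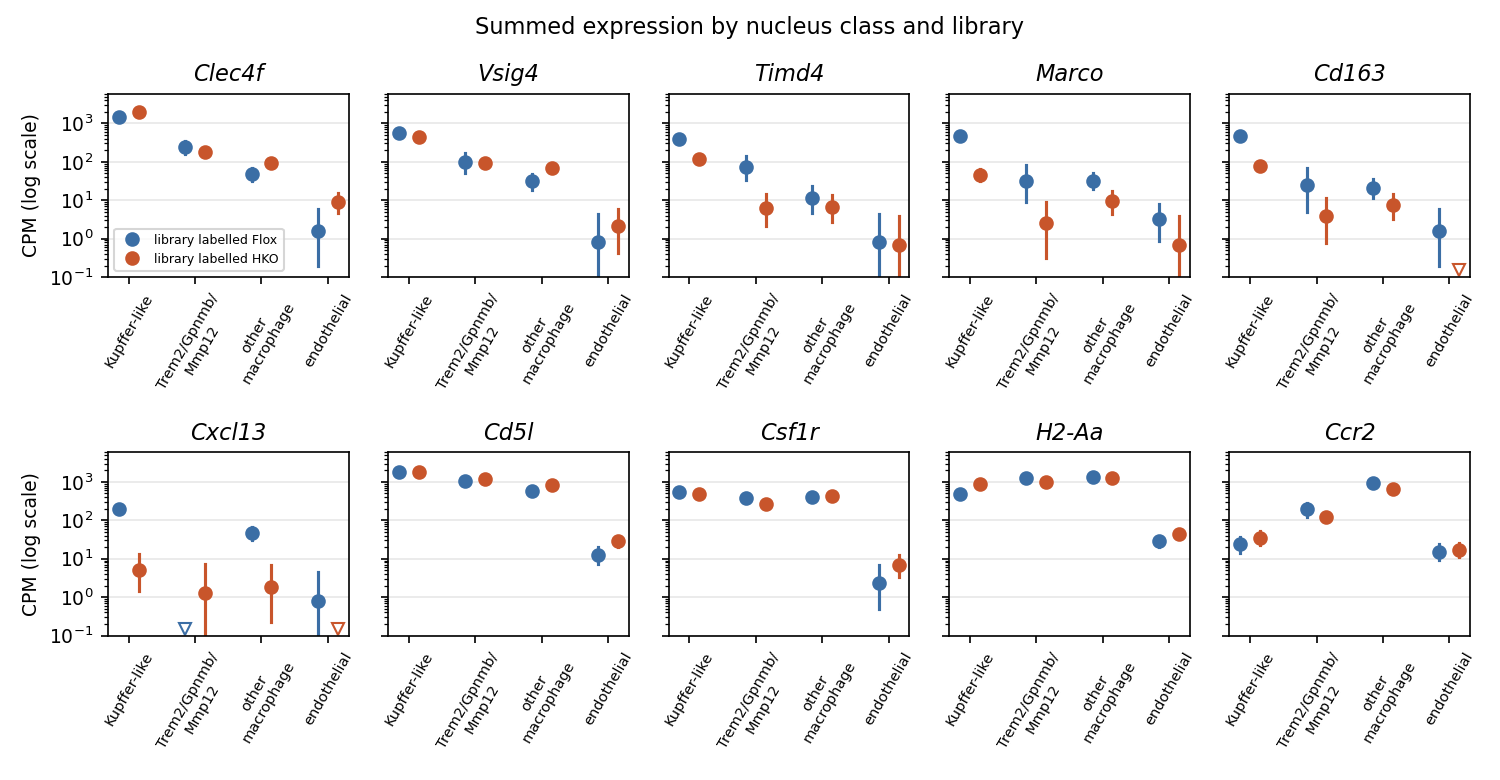
Summed expression (CPM, log axis) of 10 genes in Kupffer-like, *Trem2*/*Gpnmb*/*Mmp12*, other macrophage and endothelial nuclei of each library, with Poisson 95% intervals as vertical lines and open triangles for 0 UMIs. *Marco*, *Cd163* and *Cxcl13* are lower in HKO than in Flox in the Kupffer-like nuclei, *Cd5l* lies at about the same level in both, and *Ccr2* is lowest in Kupffer-like and endothelial nuclei.

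Between the libraries, most genes of Kupffer-like nuclei were close. The log2 ratio of HKO over Flox had a median of -0.07 over 5531 genes outside the rule, with quartiles of -0.34 and 0.17. On log2(CPM + 1), 49 genes (0.886%) were at least 2-fold higher and 141 genes (2.55%) at least 2-fold lower, 3.44% in all. Scaling by trimmed means (TMM) moved the median from -0.07 to 0.03 and the split to 71 genes higher and 109 lower, so list medians are read beside -0.07.

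*Marco*, *Cd163* and *Cxcl13* stood furthest apart among Kupffer identity genes. *Marco*, a scavenger receptor for bacteria and particles (chr1:120474538-120505024, GRCm38), had 396 UMIs in Flox and 35 in HKO. Its level was 465 CPM (421–514) in Flox and 45.9 CPM (32.0–63.8) in HKO, 10.1-fold lower (7.17–14.8). Of the 35 UMIs in HKO, 21 came from 3 nuclei, and 15 of 474 HKO nuclei had any, against 96 of 352 in Flox. The log2 ratio of *Marco* was -3.31, and it was -4.33 for nuclei chosen without *Timd4* and -2.83 after thinning.

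*Cd163*, the hemoglobin–haptoglobin receptor (chr6:124304656-124330527), was at 460 CPM (415–507) in Flox and 77.4 CPM (58.9–99.8) in HKO, 5.94-fold lower (4.51–7.95). *Cxcl13*, a chemokine that attracts B cells (chr5:95956951-95961068), had 166 UMIs in Flox and 4 in HKO, 195 against 5.25 CPM and 37.2-fold lower (14.3–138). These UMIs lay in 61 Flox nuclei and 2 HKO nuclei. *Fcna*, a ficolin that starts the lectin pathway of complement, was at 150 CPM (126–179) and 62.9 CPM (46.4–83.5), a ratio of 0.418 (0.294–0.587).

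*Cd5l*, also an identity gene, was level between the libraries. It was at 1802 CPM (1713–1894) in Flox and 1857 CPM (1761–1956) in HKO, a ratio of 1.03 (0.958–1.11). *Clec1b*, which encodes the platelet-binding lectin CLEC-2, had a ratio of 1.32 (1.18–1.48) and *Kcna2* of 1.23 (1.09–1.39), and *Paqr9*, the highest of the list, was at 308 and 416 CPM. Over the list, 13 of 18 genes were below 0 on the log2 scale, beside 58.5% of all genes. At least 2-fold higher were 0 of 18 and at least 2-fold lower 4, beside 0.886% and 2.55% of all genes. The median log2 ratio was -0.43 beside -0.07 over all genes. The list was thus uneven, with a few genes far lower in HKO, *Cd5l* at the same level and 5 genes higher.

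**Figure D3:**
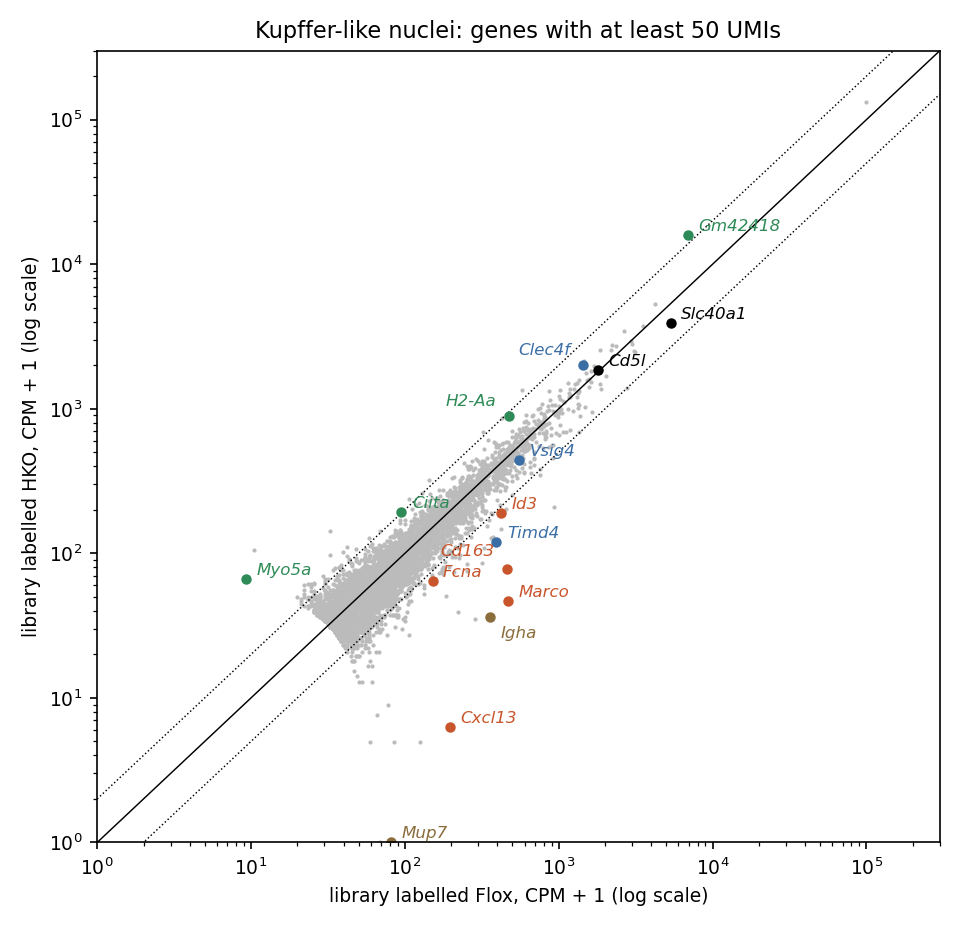
Expression in Kupffer-like nuclei, library labelled Flox (x axis) against library labelled HKO (y axis), CPM + 1 on log axes, for genes with at least 50 UMIs, with the line of equality solid and 2-fold lines dotted. *Marco*, *Cd163* and *Cxcl13* lie below the lower dotted line, *Cd5l* on the line of equality and *Ciita* at the upper dotted line.

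The same genes were compared as shares of nuclei at equal depth. Each nucleus was thinned to 1000 UMIs, which kept 349 Flox and 420 HKO members and left out 3 and 54, beside 695 and 600 endothelial nuclei with 104 and 540 left out. *Marco* was seen in 18.9% (14.9–23.4) of Flox and 3.33% (1.83–5.53) of HKO members, with 0.288% and 0% of endothelial nuclei, where, by a floor of 3 counts, 0 of 600 allows up to 0.5% of nuclei with a UMI. *Cd163* was seen in 26.1% (21.5–31.0) and 21 of 420 (3.12–7.54), and *Cxcl13* in 12.6% (9.31–16.6) and 0.238% (0.00603–1.32). Without thinning, the shares were 27.3% and 3.16% for *Marco*, 33.8% and 6.96% for *Cd163* and 17.3% and 0.422% for *Cxcl13*, at median depths of 2255 and 1477.5 UMIs in members and 1363 and 1022 in endothelial nuclei. *Cd5l* was seen in 74.8% (69.9–79.3) and 79.3% (75.1–83.1) of thinned members. *Marco*, *Cd163* and *Cxcl13* were thus lower in HKO at equal depth too, and in members with 1000 to 3000 UMIs *Marco* was at 394 and 51.2 CPM.

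These genes were also lower in HKO in the other macrophage nuclei, at far lower levels. *Marco* was at 32.5 CPM in Flox and 9.38 CPM in HKO there, *Cd163* at 21.1 and 7.50 CPM, and *Cxcl13* at 47.2 and 1.88 CPM.

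Transcription factors of Kupffer cells ranged from *Id3* to *Rbpj*. Of 17, 13 were below 0 and 4 above, beside 58.5% of all genes below 0. None was at least 2-fold higher and 1 was at least 2-fold lower, beside 0.886% and 2.55% of all genes. The median log2 ratio was -0.11, near the -0.07 of all genes. *Id3*, an inhibitor of basic helix-loop-helix factors that Kupffer cells need, was that gene, at 423 CPM (381–469) in Flox and 189 CPM (159–222) in HKO. *Spic* was at 496 CPM (450–546) and 252 CPM (217–290), a ratio of 0.508 (0.426–0.603), and *Nr1h3* at 393 CPM (352–437) and 273 CPM (237–312). *Maf* and *Zeb2* had ratios of 1.02 (0.931–1.12) and 1.06 (1.01–1.11). *Rbpj*, the nuclear partner of Notch, was the highest at 54.1 and 98.4 CPM, a ratio of 1.82 (1.24–2.69). Endothelial nuclei also carry *Id3*, in 28.5% and 21.5% of thinned nuclei beside 35.2% and 16.9% of members.

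Iron and heme genes were mostly lower in HKO. Of 13, 11 had a log2 ratio below 0, beside 58.5% of all genes, and *Cd163* was the only member at least 2-fold lower, beside 2.55%, with a list median of -0.45. *Hmox1*, which degrades heme, was at 367 CPM (327–410) in Flox and 185 CPM (156–218) in HKO. The ferritin heavy chain *Fth1* was at 758 CPM (701–819) and 384 CPM (341–431), and *Slc40a1* had a ratio of 0.735 (0.702–0.770). *Ncoa4*, which delivers ferritin to lysosomes, was the highest at 129 and 165 CPM, a ratio of 1.28 (0.982–1.67). In the other macrophage nuclei this list had a median of -0.29.

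Complement genes were below 0 in 11 of 11, beside 58.5% of all genes, with a median of -0.66 beside 0.03 in other macrophage nuclei. The C1q genes *C1qa*, *C1qb* and *C1qc* had ratios of 0.661 (0.591–0.739), 0.763 (0.677–0.859) and 0.598 (0.538–0.665). *Itgam*, the CD11b chain of complement receptor 3, was the 1 member at least 2-fold lower, beside 2.55% of all genes. Its log2 ratio was -1.40, and *C3* was the nearest to equality at 69.3 and 65.6 CPM. Pan-macrophage genes were below 0 in 16 of 18, beside 58.5% of all genes, and none was 2-fold apart, beside 3.44%. Their median was -0.46, with members from *Cd14* at 76.4 and 42.0 CPM to *Laptm5* at 331 and 344 CPM. *Csf1r*, the receptor for the growth factor that keeps macrophages alive, was at 542 CPM (493–594) and 494 CPM (446–547).

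Scavenger and efferocytosis receptors differed among themselves. *Marco*, *Cd163* and the collectin *Colec12* (87.0 and 36.7 CPM) were at least 2-fold lower, beside 2.55% of all genes. None of the 20 was 2-fold higher, beside 0.886%, and the median was -0.04. *Mertk* and *Axl*, receptors that bind dying cells, had ratios of 1.16 (1.04–1.29) and 1.13 (0.925–1.37), and *Msr1* of 1.06 (0.941–1.20). *Cd36*, a fatty acid and oxidised lipoprotein receptor, was the highest at 110.5 CPM (89.3–135) and 201 CPM (170–235), a ratio of 1.82 (1.40–2.37). The lower values were thus those of a few receptors and not of the list.

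MHC class II genes, which present antigen to CD4 T cells, were higher in HKO. Of 7, 2 were at least 2-fold higher, beside 0.886% of all genes, none was 2-fold lower and 6 were above 0, beside 41.5%, with a median log2 ratio of 0.80. *H2-Aa* was at 472 CPM (427–521) in Flox and 885 CPM (820–955) in HKO, a ratio of 1.87 (1.65–2.12). *Ciita*, the master regulator of the class, had a ratio of 2.04 (1.54–2.71), and *H2-DMb1* was at 68.2 CPM (51.8–88.1) and 142 CPM (116–171). *H2-Ab1* and *H2-Eb1* had ratios of 1.75 (1.51–2.03) and 1.61 (1.38–1.88), *Cd74*, the invariant chain, of 1.20 (1.07–1.34), and *H2-DMa*, the lowest, of 0.956 (0.531–1.71).

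Summed over the list, MHC class II reached 2030 CPM in Flox and 3205 CPM in HKO members, a ratio of 1.58 (1.48–1.68). In the other macrophage nuclei, the sums were 6184 and 5026 CPM and the median was -0.13, so the Kupffer-like nuclei stayed below those nuclei in both libraries. In *Trem2*, *Gpnmb* and *Mmp12* nuclei, the sums were 5068 and 3615 CPM. Dendritic cell markers were at 909 and 422 CPM in other macrophage nuclei, against 264 and 333 CPM in members, and the part of dendritic cells was not tested. The MHC class II median was 1.17 in all other nuclei, which include the other macrophage classes and their larger number in HKO. It was 0.38 in endothelial nuclei, at sums of 120 and 178 CPM. At 1000 UMIs, *H2-Aa* was seen in 104 of 349 (29.8%) of Flox and 49.8% (44.9–54.6) of HKO members, beside 1.73% and 24 of 600 of endothelial nuclei (43.2% and 57.4% of members without thinning).

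Other lists had medians nearer that of all genes, except the monocyte genes. Lipid-associated macrophage genes outside the rule had a median of 0.06 over 11 genes. They ranged from *Acp5* at 157.5 and 111 CPM to *Cd63*, a tetraspanin of lysosomes, at 47.0 CPM (33.6–64.0) and 106 CPM (84.4–132). *Cd63* was the 1 member at least 2-fold higher, beside 0.886% of all genes. LXR targets, a list that includes cholesterol exporters, had a median of 0.19 over 12 genes. *Abca1* and *Abcg1* had ratios of 1.31 (1.16–1.49) and 1.27 (1.04–1.55), *Mylip* was the highest at 128 and 260 CPM, and *Pltp* the lowest at 334 and 195 CPM. *Apoe*, the most abundant, was at 2943 CPM in Flox and 2958 CPM in HKO.

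Niche signal receptors had a median of -0.15 over 13 genes, with *Notch1* the lowest at 83.4 and 52.5 CPM and *Rbpj* the highest. Interferon-stimulated genes had a median of 0.13 over 9, with *Irf7* the lowest at 189 and 98.4 CPM and *Rsad2* the highest at 67.0 and 113 CPM. Neither list had a gene at least 2-fold apart, beside 3.44% of all genes. Inflammatory genes had a median of -0.28 over 11, with *Ccl2* at 52.9 and 26.2 CPM, *Il1b* at 231.5 and 127 CPM and *Il18*, the highest, at 41.1 and 56.4 CPM. Early response genes had a median of -0.18 over 11, between *Ier3* (44.7 and 17.0 CPM) and *Egr1* (21.2 and 55.1 CPM). Monocyte genes had only 4 with enough UMIs and a median of -0.86. Of these 4, 2 were at least 2-fold lower, *Itgam* among them, beside 2.55% of all genes, and *Fn1* was the highest, at 56.4 and 60.3 CPM.

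As a description, the thinned members were divided by *Timd4*, which marks long-lived resident cells. *Timd4* belongs to the rule, so nuclei without a UMI entered on *Clec4f* or *Vsig4* while those with one could enter on *Timd4*, and the division tests nothing. Nuclei without a UMI are not known to lack the gene. There were 103 Flox nuclei with a *Timd4* UMI and 246 without, and 35 and 385 in HKO. *Marco* was at 961 CPM (781–1170) with and 256 CPM (197–328) without in Flox, and at 314 CPM (157–562) and 41.6 CPM (23.8–67.5) in HKO. *Cd163* was at 699 and 378 CPM in Flox and at 314 and 70.1 CPM in HKO. Both genes were higher with a *Timd4* UMI in each library and lower in HKO with and without it, by a ratio of 0.327 (0.158–0.611) with and 0.162 (0.0875–0.284) without a UMI for *Marco*. In HKO nuclei with a *Timd4* UMI, these values rest on 11 UMIs of each gene, in 3 nuclei for *Marco* and 4 for *Cd163*. The intervals treat each UMI as independent and do not cover such clustering.

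Summed MHC class II ran the other way, less so in HKO. Its sum was 854 CPM (685–1053) with and 2756 CPM (2553–2972) without a *Timd4* UMI in Flox, and 2543 CPM (2042–3129) and 3416 CPM (3233–3605) in HKO. The ratio of with over without was 0.310 (0.245–0.388) in Flox and 0.744 (0.594–0.923) in HKO. By gene in HKO, this ratio was 0.403 (0.191–0.752) for *H2-Ab1*. The intervals for *H2-Aa* (0.579–1.28), *H2-Eb1* (0.348–1.16), *Cd74* (0.669–1.49) and *Ciita* (0.380–2.10) included equality. For the sum, the ratio of HKO over Flox was 2.98 (2.19–4.04) with and 1.24 (1.13–1.36) without a *Timd4* UMI. At least 1 MHC class II UMI was seen in 42.7% (33.0–52.8) of Flox nuclei with *Timd4* and 68.6% (50.7–83.1) of HKO ones, and in 67.9% (61.7–73.7) and 82.6% (78.4–86.3) of those without. *Cd5l* stayed between 1577 and 2200 CPM in all 4 sets.

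**Figure D4:**
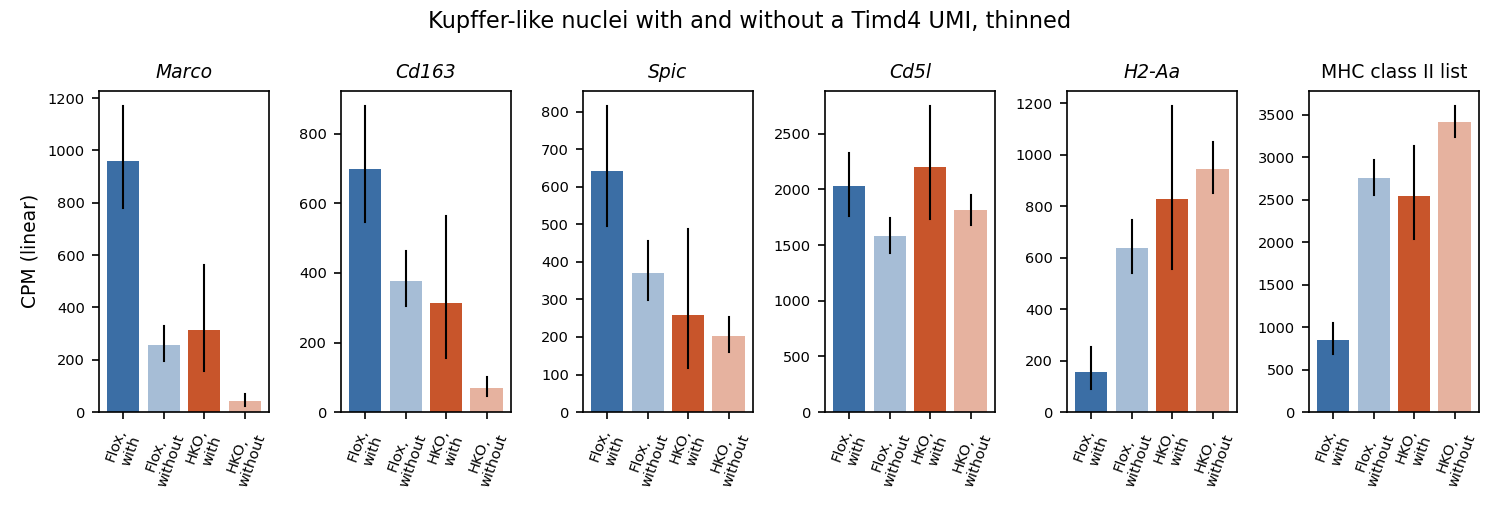
Expression (CPM, linear axes from 0) of *Marco*, *Cd163*, *Spic*, *Cd5l*, *H2-Aa* and the summed MHC class II list in Kupffer-like nuclei thinned to 1000 UMIs, with and without a *Timd4* UMI in each library, with Poisson 95% intervals as lines. *Marco* and *Cd163* are highest in Flox nuclei with *Timd4*, and the MHC class II sum is lowest there (854 CPM) and highest in HKO nuclei without it (3416 CPM).

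These genes were seen together in part of the nuclei. Of 66 Flox members with a *Marco* UMI at 1000 UMIs, 26 had *Cd163* (of 91 with that gene) and 34 had *Timd4* (of 103). Of 14 HKO members with a *Marco* UMI, 3 had *Cd163* (of 21) and 3 had *Timd4* (of 35).

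Genes of other cell types were among the 12 genes furthest lower in HKO. *Mup7*, *Mup9*, *Mup11*, *Mup17* and *Serpina1e*, secreted hepatocyte proteins of families whose copies share reads, were among the 12 lower. *Mup7* and *Mup9* had 68 and 58 UMIs in Flox members and 0 in HKO members, at least 20.3-fold and at least 17.3-fold lower against a floor of 3 UMIs over the members of the library. *Mup11* had 106 and 3 UMIs, a ratio of 0.0316 (0.00641–0.0948), and its log2 ratio was also -4.28 in endothelial nuclei. Of the 11 hepatocyte markers with enough UMIs, 4 were at least 2-fold lower, beside 2.55% of all genes. The part of free hepatocyte RNA in these values was not tested.

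*Igha*, *Igkc* and *Jchain*, the transcripts of plasma cells, came mostly from 1 nucleus. That nucleus held 293 of 302 *Igha* UMIs, 229 of 244 *Igkc* UMIs and 61 of 65 *Jchain* UMIs in Flox, and without it the plasma cell list was at 183 CPM in Flox and 184 CPM in HKO. *Adam23* had 55 and 5 UMIs, 21 of the 55 in 3 nuclei, and was at 1476 and 1212 CPM in endothelial nuclei.

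Higher in HKO, *Myo5a*, a myosin motor of vesicle transport, had 7 UMIs in Flox and 50 in HKO, a ratio of 7.97 (3.60–20.8). It was at 211 and 280 CPM in *Trem2*, *Gpnmb* and *Mmp12* nuclei, far above 8.23 and 65.6 CPM in members. *Apobec1*, an RNA-editing enzyme, was at 320 CPM (283–360) and 686 CPM (628–747), *Colgalt1*, a collagen galactosyltransferase, at 425.5 and 864 CPM, and *Fkbp5*, a glucocorticoid-induced chaperone, at 143 and 320 CPM. The log2 ratios of *Apobec1*, *Colgalt1* and *Fkbp5* were 1.10, 1.02 and 1.15 in members and 1.23, 0.667 and 1.37 in all other nuclei. *Gm42418* and *Lars2* were higher in members by ratios of 2.30 (2.23–2.37) and 2.34 (2.10–2.61), and also in endothelial nuclei, by log2 ratios of 1.21 and 1.06. *Gm21188*, *Ptprs*, *Arrdc3*, *Bhlhe40*, *Mylip* and *Cit* completed the 12, with ratios from 2.03 to 4.46. Of the 49 genes higher, 13 were also at least 2-fold higher in all other nuclei and 5 in other macrophage nuclei, and of the 141 lower, 24 and 42 were lower there too. Over all 5531 genes, 6.47% and 1.54% were at least 2-fold higher in those nuclei and 0.705% and 2.22% at least 2-fold lower.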

How the data were processed

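Per the labels and the study's methods, the authors made raw UMI counts per gene and nucleus by aligning reads to mouse build GRCm38 (intronic reads left out) in Cell Ranger 8.0.1, and deposited 1 matrix per genotype, not filtered at 300 genes. Nuclei with at least 300 genes were kept here. The study tested pseudobulk sums with edgeR, a test that needs replicates, so none was run. UMIs were summed per class and library and scaled to CPM. Ratios between libraries use genes with at least 50 UMIs over both and a pseudocount of 1 CPM, and ratios over other nuclei a prior of 5 CPM. Intervals (95%) are exact: Poisson for levels, Clopper-Pearson for shares, conditional binomial for ratios, with a floor of 3 counts. They cover counting error only.

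Members and gene lists were chosen with earlier results of these data known. The text names the 20 leading genes, the 12 highest and 12 lowest between libraries by the interval bound nearest equality, the rule and marker genes, *Themis*, the extremes of each list, members of each list at least 2-fold apart, and further list genes chosen after their values were seen. A few genes that this rule selects are not reported here. The rule itself removed no doublets. Scrublet in scanpy 1.11.5, at a rate of 0.8% per 1000 nuclei, marked 701 of 9360 Flox and 920 of 10721 HKO nuclei, of which 10 and 11 were members. Median UMIs over all nuclei were 6217 in Flox and 2242 in HKO. Python 3.11.15, numpy 2.4.6, scipy 1.17.1, pandas 2.3.3, R 4.3.3 and edgeR 4.0.16 (TMM factors only) were used, and the ratio step was tested on simulated counts.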

Additional observations from a re-analysis of the deposited data

How the results depend on the processing

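The share of Kupffer-like nuclei (ratio 1.18 of all nuclei) turned to 0.741 among nuclei up to 6000 UMIs and 0.575 among macrophage nuclei. It was 1.38 with the rule applied after thinning (243 Flox and 328 HKO members). That setting also left nuclei with fewer than 1000 UMIs out of the denominator, so 1.38 is not a share of all nuclei. The counts of genes at least 2-fold higher and lower (49 and 141) were 23 and 92 with a pseudocount of 10 CPM, 8 and 34 with at least 200 UMIs per gene, 1569 and 2375 with no filter, and 29 and 80 in members thinned to 1000 UMIs. Each of these settings changes the scale or the number of genes tested by construction. The median log2 ratio of cycling genes (-0.06) was -0.88 with the rule applied after thinning and 1.16 in members with 1000 to 3000 UMIs, a setting chosen after seeing the data, and that of monocyte genes (-0.86) was 0.33 with no filter; the cause was not tested. Of 30 named genes past 2-fold, all 30 kept their sign under the alternatives in which they were measured, up to 14, and 24 stayed past it in each. With 1 library per genotype, no library could be left out. No paired analysis was possible because each genotype had 1 library and no result comes from a test.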

Other observations

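Cycling genes had a higher summed level in Kupffer-like nuclei than in the other macrophage classes of the same library. Their list summed to 665 CPM in Flox and 557 CPM in HKO members, against 280 and 311 CPM in other macrophage nuclei and 235 and 286.5 CPM in *Trem2*, *Gpnmb* and *Mmp12* nuclei. *Mki67*, a marker of proliferating cells, was at 155 and 146 CPM in members, and *Top2a*, the topoisomerase that untangles replicated DNA, at 112 and 123 CPM. These UMIs were concentrated. Nuclei with at least 5 UMIs of the list, a limit chosen after seeing the data, were 17 of 352 (4.83%, interval 2.84–7.62) in Flox and 21 of 474 (4.43%, interval 2.76–6.69) in HKO, and held 73.7% and 82.1% of the list's UMIs. In other macrophage nuclei, 5 of 290 and 20 of 727 reached that limit, and in *Trem2*, *Gpnmb* and *Mmp12* nuclei 1 of 62 (interval 0.0408–8.66%) and 13 of 449 (2.90%, interval 1.55–4.90), so the intervals overlap those of the members. The classes differed in depth, and these counts were not thinned.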
